A study of Zea mays with 9 samples.

Results

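The PR-10 family of pathogenesis-related proteins was followed in leaves of the maize cultivar Golden Bantam, through the genes that the deposited count table describes with the Pfam domain PF00407, the Bet v I family. The table held 6 such genes among 39755. The rule named Zm00001eb014000 and Zm00001eb014010 and added the other rows with this domain, up to the 10 with the highest summed count. Because only 6 rows carried it, the summed count removed none, and these counts are given below as a description. The family and the named pair were chosen with earlier results of these data known.

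Each of the 9 libraries was made from poly-A RNA of the excised leaf 2 of seedlings grown for 8 days in soil, into which a solution was drawn under a vacuum of 60 mbar, and all were taken 6 h later. The solution held 5 µM Zip1 peptide (Zip1), 2 mM salicylic acid (SA), or water with 0.1% DMSO (mock), with 3 libraries each. All leaves, mock included, were therefore cut and infiltrated. Whether the Zip1 and SA solutions also held DMSO, and whether libraries of a group came from separate plants, is not stated in the labels, so p-values measure the spread between these libraries, which may in part be technical. The design asks which transcripts the peptide and the hormone change, and where their effects differ.

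PR-10 proteins are small, mostly cytosolic proteins that plants make upon infection, wounding and other stress. They share a fold with the birch pollen allergen Bet v 1, in which a long helix closes a hydrophobic cavity that can bind plant metabolites and hormones, and some members have ribonuclease activity in vitro. Salicylic acid is a hormone of the response to pathogens, and Zip1 is a peptide signal cut from a maize precursor protein.

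The libraries held 28840453 to 38794412 counts. Genes of leaf photosynthesis marked the tissue in every library: chlorophyll a/b binding proteins (32 of 35 genes detected, 3 at 0) summed to 34200 to 67400 CPM (counts scaled to the TMM-adjusted size of each library) in Zip1 libraries, 46200 to 62200 in SA libraries and 42600 to 91800 in mock libraries. Both Rubisco small subunit genes and all 6 PEP carboxylase genes were detected. Zein genes of the kernel were at 0 in 21 of 22 cases, and their sum did not pass 0.0331 CPM. The part that such differences in makeup have in the results was not tested, and in whole leaf tissue fewer expressing cells and less RNA per cell cannot be told apart. Across 23077 tested genes, edgeR's quasi-likelihood test called 204 at an adjusted p under 0.05 for Zip1 against mock, 1436 for SA against mock and 949 for Zip1 against SA. With the replicate number as a block the counts were 574, 2220 and 1553.

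The family's counts came almost entirely from 3 genes, which together took 99.6% of them. Zm00001eb014000 (chromosome 1, 46984481 to 46985367, plus strand, build not stated) had the highest summed count, 8134, followed by Zm00001eb308400 (chromosome 7, 75145754 to 75146697, plus strand) with 7286 and Zm00001eb014010 (chromosome 1, 46990346 to 46991278, plus strand) with 6349. The remaining 3 genes had at most 49 counts over all libraries. The protein entry paired with the chromosome 1 genes is Pathogenesis-related protein 1 of Asparagus officinalis, which despite its name is of the PR-10 class and not of the PR-1 class of CAP proteins. Zm00001eb308400 is paired with norbelladine synthase of Narcissus pseudonarcissus, a PR-10 fold enzyme of alkaloid synthesis in that plant. Such an entry names the most similar described protein and is not a function shown in maize.

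Transcripts of the neighbouring genes on chromosome 1 were higher in Zip1-infiltrated than in SA-infiltrated leaves, with mock leaves in between. Both were called lower with SA than with mock. For Zm00001eb014000 that call was kept in only 2 of the 9 fits that left out 1 library. Neither gene passed the threshold for Zip1 against mock. After TMM scaling their 3 Zip1 libraries still lay above all 3 mock libraries, an order that Zm00001eb014000 lost without TMM factors. The well expressed gene on chromosome 7 was called in no comparison.

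Zm00001eb014000 had normalised counts of 1085, 1703 and 1553 in Zip1 libraries, of 450.8, 490 and 385.4 in SA libraries, and of 669.9, 725 and 999.4 in mock libraries, in the order of replicates 1 to 3. After TMM scaling the 3 groups did not overlap, with the Zip1 libraries above and the SA libraries below all mock libraries. The lowest Zip1 library and the highest mock library were close, at 1085 and 999.4, and counts per library total without TMM factors put them in the other order, at 33.13 CPM in Zip1 replicate 1 against 33.56 CPM in mock replicate 3.

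The direct test of the treatments gave Zm00001eb014000 a log2 fold change of 1.71 for Zip1 over SA (SE 0.218, 95% interval 1.23 to 2.19, adjusted p 0.00186), which is 3.27-fold. SA over mock gave −0.85 (SE 0.214, interval −1.32 to −0.38, adjusted p 0.0393). Zip1 over mock gave 0.86 (SE 0.213, interval 0.39 to 1.33, adjusted p 0.0969), short of the threshold. The difference between the treatments was called whichever of the 9 libraries was omitted, with values of 1.58 to 1.88. The call for SA against mock was less firm. It was lost when any of the 3 mock libraries, any of the 3 SA libraries or Zip1 replicate 3 was omitted (adjusted p up to 0.15, without SA replicate 3), and when the Zip1 libraries were kept out of the fit (adjusted p 0.0546), while the log2 fold change stayed between −0.96 and −0.66. For Zip1 against mock the DESeq2 Wald test gave an adjusted p of 0.0169, and the values over the other alternatives ran from 0.0532 with the replicate block to 0.314 without mock replicate 1.

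Zm00001eb014010 had normalised counts of 1126, 1392 and 1246 in Zip1 libraries, of 75.86, 204.5 and 171.2 in SA libraries, and of 457.1, 752.1 and 911.8 in mock libraries. Again no groups overlapped, and the SA libraries stood far below the rest. The Zip1 libraries varied least, with a coefficient of variation of 10.6%, against 44.4% in SA and 32.6% in mock.

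Zip1 over SA was 3.05 on the log2 scale for Zm00001eb014010 (SE 0.358, adjusted p 0.00134), or 8.3-fold. SA over mock was −2.23 (SE 0.349, 95% interval −3 to −1.46, adjusted p 0.00337), a fall to 150.5 ± 66.74 normalised counts in SA leaves, against 707 ± 230.7 in mock leaves (SD, n = 3 each). Both calls held whichever of the 9 libraries was omitted, at 2.74 to 3.32 for Zip1 over SA and −2.49 to −1.91 for SA over mock. Zip1 over mock was 0.83 (SE 0.33, interval 0.1 to 1.56, adjusted p 0.355), and its adjusted p ran from 0.0737 with the replicate block to 0.681 without mock replicate 1.

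**Figure D1:**
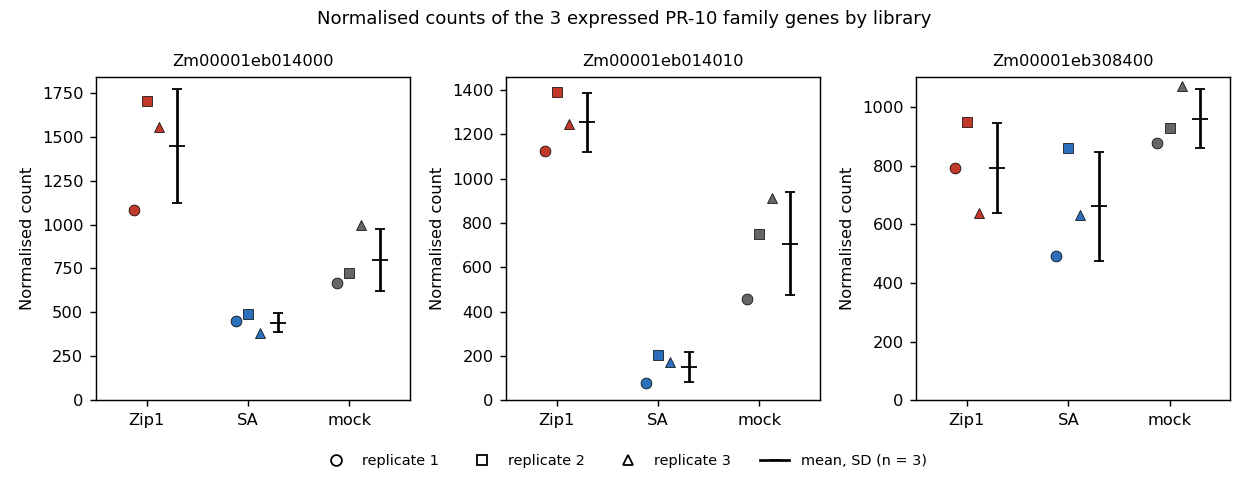
Normalised counts (vertical axes, each starting at 0) of the 3 expressed genes in Zip1, SA and mock libraries, after TMM scaling, with 1 point for each library, shapes for replicate numbers, and the mean with SD at the right of each group. For both chromosome 1 genes the Zip1 points lie above and the SA points below all mock points (for Zm00001eb014000, Zip1 and mock overlap without TMM factors), while the groups of Zm00001eb308400 lie closer together and its Zip1 and SA points overlap.

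Zm00001eb308400 had normalised counts of 791.5, 947.5 and 639.4 in Zip1 libraries, of 490.9, 860.8 and 630.8 in SA libraries, and of 878.7, 930.1 and 1072 in mock libraries. Its Zip1 libraries overlapped both other groups, and its SA libraries were all below the mock libraries, the closest at 860.8 against 878.7, but overlapped them without TMM factors (27.35 CPM in SA replicate 2 against 26.84 CPM in mock replicate 2). SA over mock was −0.54 on the log2 scale (SE 0.221, 95% interval −1.03 to −0.05, adjusted p 0.21), Zip1 over mock −0.28 (SE 0.22, interval −0.76 to 0.21, adjusted p 0.722) and Zip1 over SA 0.26 (SE 0.221, interval −0.22 to 0.75, adjusted p 0.618). None of these was called when any single library was omitted. The interval for Zip1 over SA does not reach the fitted 1.71 of Zm00001eb014000 or the 3.05 of Zm00001eb014010, but a test between these genes was not made.

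Of the 6 genes, 4 passed the filter on low counts and were tested. For Zip1 against SA 2 of the 4 were called, both higher, where 1.56% of all tested genes were called higher and 4.11% in either direction. For SA against mock the same count of 2 was called, both lower, against 1.11% of all tested genes called lower and 6.22% in either direction. For Zip1 against mock 0 were called by edgeR's test, against 0.884% of all tested genes in either direction. At an unadjusted p under 0.05 in that test were 2 members, and 2652 of the 23077 tested genes. DESeq2 called 1 member, and 930 of all genes. Separation of all libraries after TMM scaling is common with 3 against 3: 11.5% of tested genes had every Zip1 library above every SA library, 10.5% had every SA library below every mock library, and 10.3% had every Zip1 library above every mock library. The comparisons with mock share the same 3 mock libraries, so a low or high mock library moves both. Since the pair was named with results known, its calls are given as values of these libraries and support no further statement.

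**Figure D2:**
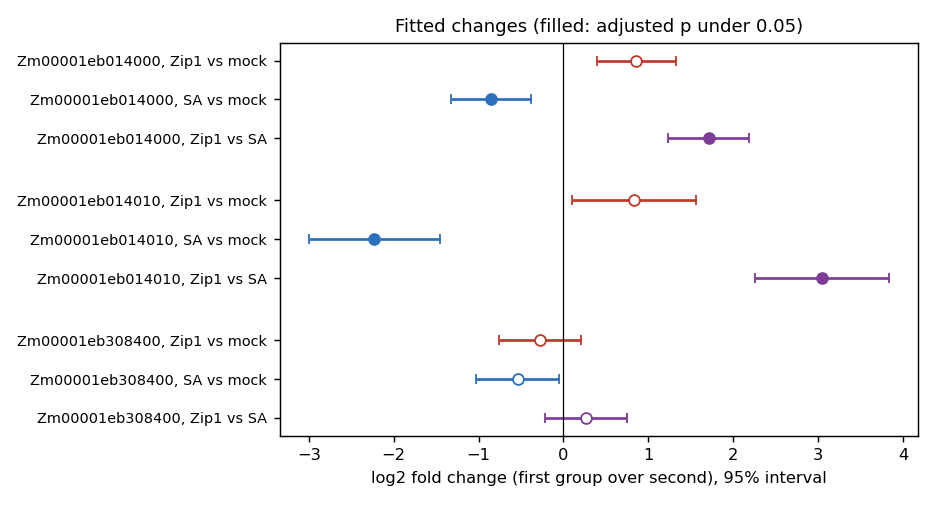
Log2 fold changes from the fit over all 9 libraries (horizontal axis, first group over second) with their 95% intervals for the 3 expressed genes and the 3 comparisons. Filled points had an adjusted p under 0.05: both chromosome 1 genes for SA against mock and for Zip1 against SA, and no point of Zm00001eb308400. An interval that excludes 0 is not adjusted for the number of genes.

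Libraries with the same replicate number deviated together from their group means, so folds within a number are also given. Within numbers 1 to 3, Zm00001eb014010 was 14.8-fold, 6.81-fold and 7.28-fold as high with Zip1 as with SA. Zm00001eb014000 was 2.41-fold, 3.47-fold and 4.03-fold as high. Each gene was thus higher with Zip1 in 3 of 3 numbers. The Zip1 and SA libraries of these genes did not overlap, so any matching of numbers would give this, and it adds no support. Against the mock library of the same number, Zm00001eb014010 in Zip1 leaves was 2.46-fold, 1.85-fold and 1.37-fold, and Zm00001eb014000 was 1.62-fold, 2.35-fold and 1.55-fold. The main test did not use the replicate numbers. With them as a block, edgeR's quasi-likelihood test gave Zm00001eb014010 a log2 fold change of 3.15 for Zip1 over SA (adjusted p 0.000194). For SA over mock it gave −2.26 (adjusted p 0.000471). The values for Zm00001eb014000 were 1.68 (adjusted p 0.00157) and −0.83 (adjusted p 0.0252). No call of the 4 tested genes was gained or lost with the block.

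The chromosome 1 neighbours are 4978 bp apart on the same strand and share a protein entry, and their ratio was followed from library to library. The ratio of Zm00001eb014010 to Zm00001eb014000, both per length, was 0.962, 0.758 and 0.744 in Zip1 libraries, 0.156, 0.387 and 0.412 in SA libraries, and 0.633, 0.962 and 0.846 in mock libraries. All 3 SA libraries were below all Zip1 and mock libraries, whereas Zip1 and mock libraries overlapped. The mean ratio was 0.318 ± 0.141 in SA against 0.814 ± 0.167 in mock (SD, n = 3 each), and the mean of the log2 ratios differed by −1.46. For Zip1 against mock, at 0.821 ± 0.122 and 0.814 ± 0.167, the mean of the log2 ratios differed by 0.02. Leaving out SA replicate 1, the lowest library, brought the SA difference from mock to −1.01, the nearest to 0 when any single library was omitted. This ratio was examined after the values of both genes had been seen, so it is given with no test. The similarity of the sequences of these neighbours was not analysed here, and reads shared between near-identical copies could be divided or dropped in the authors' counting, so the separate levels are uncertain to that extent.

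**Figure D3:**
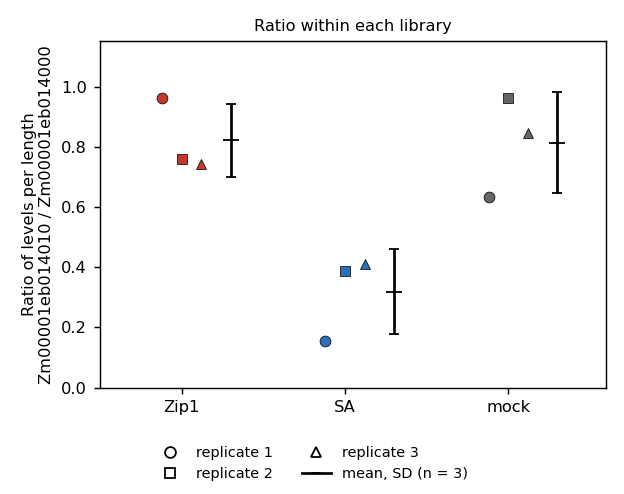
Ratio of the level per length of Zm00001eb014010 to that of Zm00001eb014000 within each library (vertical axis, no unit), by group, with 1 point for each library and the mean with SD. The SA libraries lie between 0.156 and 0.412, and the Zip1 and mock libraries between 0.633 and 0.962.

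Levels between genes were compared per length, in TPM computed from the counts and the gene lengths of the table and scaled to the same total in every library. In Zip1 leaves Zm00001eb014000 stood highest at 101.2 ± 26.86 TPM, then Zm00001eb014010 at 80.94 ± 11.72 and Zm00001eb308400 at 51.77 ± 8.882 (SD, n = 3). The libraries of the top genes overlapped there, while those of Zm00001eb308400 reached 61.85 TPM at most and lay below both. In SA leaves Zm00001eb308400 was highest at 41.34 ± 11.17 TPM, followed by Zm00001eb014000 at 29.49 ± 4.764 and, with no overlap to either, Zm00001eb014010 at 9.154 ± 3.853. The lowest library of Zm00001eb308400, at 32.89 TPM, was just above the highest of Zm00001eb014000, at 32.52. In mock leaves the 3 genes had 59.18 ± 10.53 TPM (Zm00001eb308400), 52.3 ± 15.51 (Zm00001eb014000) and 42.75 ± 15.76 (Zm00001eb014010), and their libraries overlapped. Among tested genes, the mean TPM of Zm00001eb014010 was above 92.4% in Zip1 leaves, 50.7% in SA leaves and 85.9% in mock leaves. That of Zm00001eb014000 was above 94.3%, 78.1% and 88.7% in the same order. For Zm00001eb308400 these shares were 87.3%, 84.2% and 90.3%.

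Summed over the 6 genes, the family had 95.97, 129 and 109.2 CPM in Zip1 libraries, 32.28, 49.33 and 37.97 CPM in SA libraries, and 63.62, 76.49 and 95.35 CPM in mock libraries. The SA libraries were below all others. The order of the lowest Zip1 and the highest mock library depended on the scaling: 95.97 against 95.35 with TMM factors, and 92.36 against 101 without them.

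The 3 remaining genes were close to the limit of detection. Zm00001eb072230 (chromosome 2, 13852411 to 13853372, minus strand), also paired with norbelladine synthase, had 14, 12 and 0 counts in Zip1 libraries, 0 in each SA library, and 0, 0 and 23 counts in mock libraries. It passed the filter through the 3 libraries with counts and was called in no comparison (adjusted p 0.979 for Zip1 against mock, 0.301 for SA against mock and 0.301 for Zip1 against SA). Zm00001eb410040 (chromosome 10, 22620555 to 22621617, minus strand), which has the domain and no protein entry, had 0, 13 and 6 counts in Zip1 libraries, 0 in each SA library, and 0, 4 and 0 in mock libraries. Zm00001eb080380 (chromosome 2, 42235552 to 42236495, minus strand), paired with an MLP-like protein of Arabidopsis thaliana, a member of the major latex protein group, had 7, 0 and 0 counts in Zip1 libraries, 0, 0 and 9 in SA libraries, and 0 in each mock library. The last 2 genes did not pass the filter. A count of 0 allows up to 3 counts in a library, or 0.0772 to 0.106 CPM, for counting error only. None of these genes was called, with or without the filter on low counts. At this depth such low counts leave a difference between groups undecided. Zm00001eb080380 lies over Zm00001eb080390 on the opposite strand, and reads of the overlap cannot be told apart because the use of strand in counting is not stated.

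Further rows shared a protein entry with a member and listed no PF00407 domain. They were sought after the files had been read and numbered 4. Zm00001eb013990 (chromosome 1, 46961580 to 46962740, plus strand), 21740 bp before Zm00001eb014000 and with the same asparagus entry, makes a row of 3 such genes on the plus strand of chromosome 1. It had 64.6, 128 and 182 normalised counts in Zip1 libraries, 55.3, 17.8 and 60.3 in SA libraries, and 62.6, 122 and 91.6 in mock libraries. Its SA libraries were all below the Zip1 and mock libraries, and Zip1 and mock overlapped. The margin was small: SA replicate 3 stood at 60.3, mock replicate 1 at 62.6 and Zip1 replicate 1 at 64.6, from 56, 60 and 58 counts. Of all tested genes, 10.5% had every SA library below every mock library, and 11.5% had every Zip1 library above every SA library. No comparison passed: the log2 fold change was 0.44 for Zip1 over mock (adjusted p 0.837), −1.05 for SA over mock (adjusted p 0.321) and 1.5 for Zip1 over SA (adjusted p 0.163). The next gene on that side, Zm00001eb013980, which has no protein entry, had mean normalised counts of 343 in Zip1, 428 in SA and 380 in mock leaves and was not called either. Zm00001eb429960 on chromosome 10 (142291571 to 142293138, plus strand), with the norbelladine synthase entry, had 490.6 ± 139.5 normalised counts in Zip1, 540.5 ± 254.7 in SA and 404.4 ± 55.17 in mock leaves (SD, n = 3), with adjusted p-values of 0.549 to 0.886. Zm00001eb080390 had 5 counts in all and Zm00001eb429980 had 0.

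Correlations across the 9 libraries were taken on log2(CPM + 1), here and for the genes below. The chromosome 1 neighbours had a Pearson r of 0.92. It was 0.395 between Zm00001eb014000 and Zm00001eb308400 and 0.61 between Zm00001eb014010 and Zm00001eb308400. These points share libraries and group means, and r is a description. Among 14619 other tested genes with a protein entry and a mean of at least 50 normalised counts, those most like Zm00001eb014000 over the 9 libraries were Zm00001eb282880 (r = 0.982, paired with acyl transferase 15 of rice), Zm00001eb128960 (r = 0.977, chaperone protein dnaJ 72) and Zm00001eb275000 (r = 0.971, transmembrane 9 superfamily member 9). Zm00001eb282880 had 192.7 ± 56.87 normalised counts in Zip1, 11.26 ± 3.644 in SA and 58.93 ± 19.48 in mock leaves (SD, n = 3). Those most like Zm00001eb014010 were Zm00001eb062440 (r = 0.989, PHD finger protein ALFIN-LIKE 3), Zm00001eb213760 (r = 0.983, tubulin alpha-3 chain) and Zm00001eb285010 (r = 0.973, Ras-related protein RGP2). The tubulin gene spanned a smaller range, with 13790 ± 376.4 normalised counts in Zip1, 9205 ± 687.2 in SA and 12380 ± 1304 in mock leaves. The lists share no gene. The highest values among so many genes are large in part because they are the highest.

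Other pathogenesis-related proteins were grouped by Pfam domain in 11 families, of which 195 genes were tested. Higher in Zip1 than in SA leaves were 17 of them (8.72%) and lower were 0, where 1.56% of all tested genes were called higher and 2.56% lower. The median log2 fold change for Zip1 over SA was 0.37 in these families and 0.00866 over all tested genes. The 17 genes were 5 of 45 glycosyl hydrolase 17 genes (the PR-2 class, glucanases that cut beta-1,3-glucan), 5 of 74 peroxidases, 3 of 14 glycosyl hydrolase 18 genes, 2 of 10 glycosyl hydrolase 19 chitinases and 2 of 21 thaumatin-like genes (PR-5). All 3 glycosyl hydrolase 18 genes are paired with xylanase inhibitor proteins, and 1 of the glycosyl hydrolase 17 rows, Zm00001eb018180, with a polyamine transporter. Of the 3 glycosyl hydrolase 18 rows, Zm00001eb301500 and Zm00001eb301510 overlap on opposite strands of chromosome 7; whether the counting used strand is not given in the sources used here, so their reads cannot be told apart and they may not be separate genes in the count of 17. The thaumatin-like gene Zm00001eb032600, for instance, had 799.4 ± 98.12 normalised counts in Zip1, 171.8 ± 34.1 in SA and 289 ± 107.9 in mock leaves (SD, n = 3), a log2 fold change of 2.22 for Zip1 over SA (adjusted p 0.00216). The peroxidase gene Zm00001eb195200 had 628 ± 190.9, 51.29 ± 15.91 and 284.5 ± 181.4 normalised counts in Zip1, SA and mock leaves, with 3.61 for Zip1 over SA (adjusted p 0.00188). These examples were picked after their values were seen, and their order was not shared by every called gene of these families. The chitinase gene Zm00001eb272090 had 9846 ± 2431, 5206 ± 2289 and 1829 ± 204.3 in Zip1, SA and mock leaves. It was called higher than mock with both treatments in edgeR's test (adjusted p 0.0154 for Zip1, 0.0194 for SA).

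For SA against mock, 10 of the 195 genes were higher (5.13%, all tested genes 5.11%) and 6 lower (3.08%, all tested genes 1.11%), and 4 of the 6 lower genes were peroxidases. The 1 peroxidase row that was higher, Zm00001eb112040, is paired with a cytosolic ascorbate peroxidase. Among the 10 higher genes, the glycosyl hydrolase 17 rows Zm00001eb218220 and Zm00001eb218230 overlap on opposite strands of chromosome 5, with the same limit. Zip1 against mock gave 8 higher (4.1%, all tested genes 0.823%) and 0 lower (all tested genes 0.0607%), and the overlapping Zm00001eb301500 and Zm00001eb301510 are again 2 of the 8. When mock replicate 1 was omitted, 0 of all tested genes were called for Zip1 against mock, so none of these 8 was. Among these families the CAP proteins, which include the PR-1 class, had 4 of 18 genes tested and 0 called in any comparison. Barwin, potato inhibitor I, lipid transfer and cupin genes also gave 0 calls, with 3, 2, 5 and 17 genes tested, and no defensin gene passed the filter. With so few genes tested, 0 calls does not show that a family was unchanged. In that order the median log2 fold changes were 0.48, 2.8, 1.07 and 0.13 for Zip1 over SA. For SA over mock they were 0.94, −1.45, −0.69 and −0.16, and for Zip1 over mock 1.42, 1.35, 0.03 and −0.29. Of the polyketide cyclase 2 domain, which shares the fold of PR-10 proteins and is found in abscisic acid receptors, 13 genes were tested and 1 was called: Zm00001eb204180, paired with the receptor PYL3 of rice, was lower in Zip1 than in SA leaves (1439 ± 126.7 against 2184 ± 98.87 normalised counts, log2 fold change −0.6, adjusted p 0.0313). Over all tested genes, 2.56% were called lower and 4.11% in either direction in that comparison. For Zip1 and SA against mock the shares in either direction were 0.884% and 6.22%. The 1 call among 13 genes is therefore no result about the domain as a whole.

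**Figure D4:**
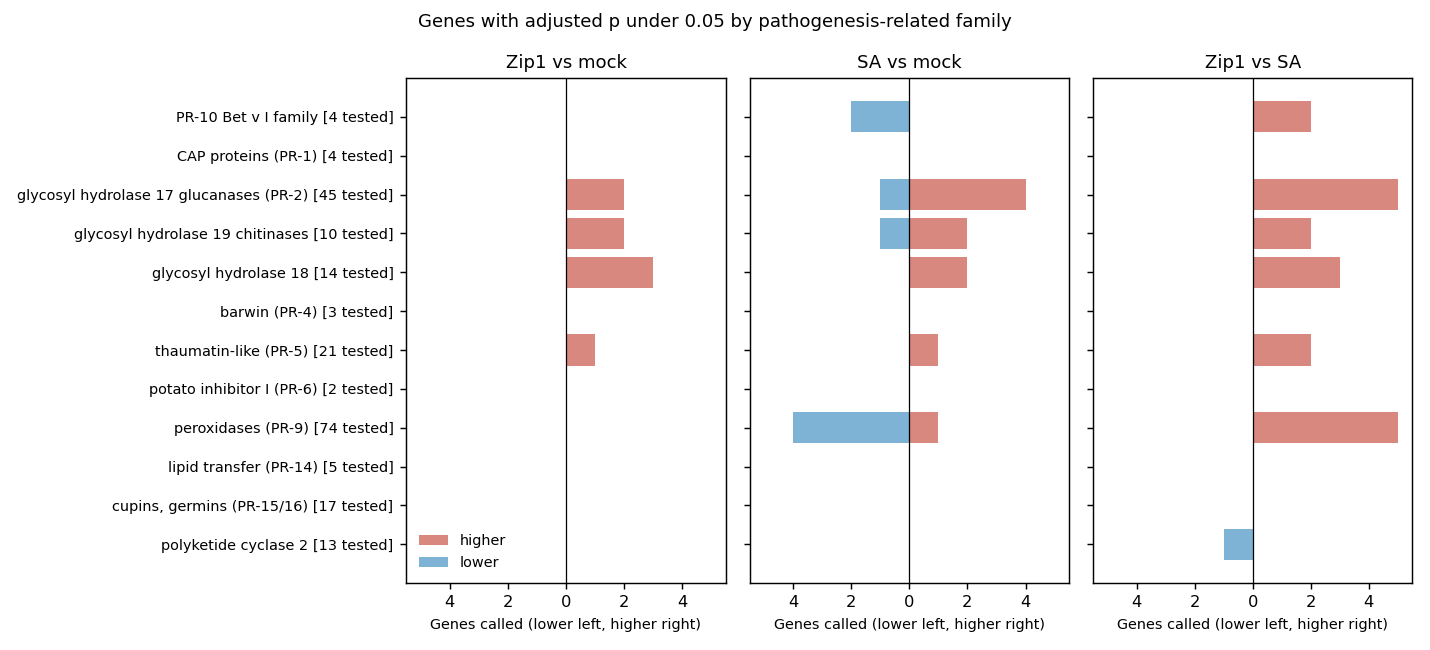
Number of genes with an adjusted p under 0.05 in each family (rows, with the number tested), called higher (bars to the right) or lower (bars to the left) in each of the 3 comparisons. The PR-10 row shows 2 lower genes for SA against mock and 2 higher genes for Zip1 against SA. In the Zip1 against SA panel, the polyketide cyclase 2 row alone has a bar to the left.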

How the data were processed

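The authors deposited raw counts per gene for 9 libraries, 1 column each, with no replicates pooled. The submitters' processing notes list HISAT2 2.0.5, featureCounts 1.5.0-p3 and DESeq2 1.20.0. The genome build and strand setting are not given in the sources used here. A deposited FPKM table was not used, because its values had lost decimal points. An empty line of the count table (1) is not analysed here. No column lacked a library (0).

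Members, gene lists and tests were chosen with earlier results of these data known. Counts were filtered by filterByExpr, scaled by TMM and tested in edgeR 4.0.16 (R 4.3.3) by the quasi-likelihood F test on all 9 libraries with group as the only term. P-values were adjusted over 23077 genes by the Benjamini-Hochberg method, with calls under 0.05. The common dispersion was 0.118. Approximate standard errors were taken as the size of the log2 fold change divided by the root of F. Normalised counts are scaled to the mean effective library size. The pipeline was run on simulated data with the same dispersion of 0.118 for every gene and changes in Zip1 only. The simulation held no replicate-number structure, so it is a check of the code and not of the calls. Alternatives used DESeq2 1.42.0, RLE factors, no filter, 6 libraries, a replicate block, or left out 1 library. Described with values in every library were the genes the rule names and members called at least once. Zm00001eb308400, Zm00001eb072230, the other low genes and the examples from other families were added after their values were seen. The genes most like each of the pair were the 3 with the highest r.

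Libraries of the same replicate number correlated in their deviations from group means at 0.115 to 0.288 for every pair of every comparison. Each library of the first group of a comparison correlated best with its own number in the second group. The reverse was not checked. The main test did not use this pairing, and a fit with the replicate number as a block is given beside it. The labels name no shared batch for the numbers. Duplicated libraries were checked for: replicate pairs differed by a chi-square per degree of freedom of 47.7 to 105.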

Additional observations from a re-analysis of the deposited data

How the results depend on the processing

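The calls of Zm00001eb014000 and Zm00001eb014010 for Zip1 against SA, and of Zm00001eb014010 for SA against mock, kept direction and side of the threshold under DESeq2, RLE factors, no filter, the 6 libraries compared, the replicate block and each left-out library. The number of the 6 genes called for SA against mock was 1, not 2, in the fit on 6 libraries, and 1 to 2 when single libraries were omitted. For Zip1 against mock it was 1 under DESeq2, not 0, and 0 when any single library was omitted. For Zip1 against SA it was 2 throughout. The replicate block changed no call of these genes. Adding the rows that share an entry changed no count. Counting all rows with the domain is no alternative, since the 6 genes are already all of them. The log2 fold change of Zm00001eb072230 for Zip1 over mock, 0.22, turned to −0.35 without mock replicate 1 or 2 and to −0.43 without Zip1 replicate 1, and was 6.17 without mock replicate 3; its counts are near the floor. Without TMM factors, a scaling chosen after seeing the data, the gap from the highest mock library to the lowest Zip1 library turned to −8.59 CPM for the 6 genes summed (0.626 with them) and to −0.43 CPM for Zm00001eb014000 (2.73 with them), and that from the lowest mock library to the highest SA library turned to 0.505 CPM for Zm00001eb308400 (−0.565 with them).

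Over all genes, DESeq2 called 930 for Zip1 against mock, 2449 for SA against mock and 2037 for Zip1 against SA, and the replicate block 574, 2220 and 1553. Leaving out 1 library gave 0 to 243, 839 to 1414 and 456 to 960. The 0 came without mock replicate 1, with 2184 genes at an unadjusted p under 0.05 in edgeR's test. Causes were not tested. Ratios of mean levels per length moved by less than the spread between libraries on TMM-scaled counts per kb. Both scalings act on whole libraries and leave the ratio within each library unchanged, so this was no test of the ratios.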
